A study of Mus musculus with 10 samples.

Results

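Clca3a1 and Clca3a2 are neighbouring genes of the calcium-activated chloride channel regulator (CLCA) family on mouse chromosome 3. Both were selected on their measured signals across these 10 arrays and 4 groups, so every value given for them is a description without a test. They are 2 of the 19938 genes that had a probeset of their own on the array, and each was read by 1 such probeset among 35557, probeset 10502552 for Clca3a1 and probeset 10502565 for Clca3a2. The cells were wild-type mouse embryonic fibroblasts (MEFs), connective tissue cells of the embryo, which had been irradiated so that they no longer divided. Dishes were kept for 9 days with DMSO, a solvent, or with 16 nM nilotinib, an inhibitor of the Abl kinase. In some dishes the MEFs shared the medium with ALL cells, a line of leukemic precursor B cells from a mouse with a Bcr/Abl transgene, from which a Transwell membrane kept them apart. Arrays numbered 3 each for MEFs + DMSO, MEFs + nilotinib and MEFs + ALL + nilotinib, and 1 for MEFs + ALL + DMSO, each from a separate dish, so that p-values measure the spread between dishes. The paper states that other samples of MEFs + ALL + DMSO were found contaminated by ALL cells, which left 1. All ALL cells were of 1 line, and MEFs are a mixed population grown out of embryos.

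CLCA proteins were first taken for chloride channels and are now known as secreted or membrane-anchored proteins with a metalloprotease-like domain, which cut themselves and can raise chloride currents through true channels such as Ano1. Family members are best known from mucus-producing epithelia, where Clca1 is secreted with mucus. The mouse genes Clca3a1 and Clca3a2 have been described in endothelium, mammary gland and the stroma of lymphoid tissue, and binding of CLCA proteins to integrins of tumor cells and leukocytes has been reported. The genes of the family are close in sequence. The probe sequences were not used here, so how far the probesets of Clca3a1 and Clca3a2 read each other's transcripts was not tested.

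The sequence just upstream of the start of Clca3a1 is shown as context for the group differences of that gene. The 250 bases before the start, from RefSeq (GRCm38.p6) and read 5′ to 3′ on the minus strand, are at chr3:144760978-144761227. Capitals mark matches to the Sp1, TATA-like and CCAAT motifs.
Clca3a1: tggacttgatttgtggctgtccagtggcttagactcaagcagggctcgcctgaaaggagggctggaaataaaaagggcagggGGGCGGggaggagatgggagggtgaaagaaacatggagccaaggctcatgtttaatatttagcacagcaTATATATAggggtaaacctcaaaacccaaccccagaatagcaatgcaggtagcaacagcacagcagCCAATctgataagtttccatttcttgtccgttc

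A search for 8 short motifs on both strands, chosen after sequences had been seen, matched 3 of them in Clca3a1. The TATA-like TATATA had overlapping matches at 99 and 97 bases before the start, the CCAAT box CCAAT had a match at 33 and the Sp1 motif GGGCGG had a match at 168. These were found in 5.25%, 33.8% and 32.7% of 32851 windows of the same length from 27025 genes. The TATA box TATAAA (12.4% of windows), the C/EBP-like TTNNGCAA (9.56%), the AP-1 motif TGANTCA (6.75%), the STAT motif TTCNNNGAA (7.02%) and the core ACGTG of the hypoxia response (16.6%) had no match. Runs of 20 bases from this window were found in 0 other genes of the table. A match is a description of letters, and no binding was measured here.

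The arrays were alike in overall signal, with medians from 6.94 to 7.01 on the log2 scale, but 2 of them stood apart. The single array of MEFs + ALL + DMSO lay at 66.9 on the first principal component, which held 30.8% of the variance, whereas the other 9 lay between -22.6 and 9.13. It also carried leukocyte transcripts, as described further on, and 14 of 15 measured leukocyte and B-lineage genes were higher there than in MEFs + DMSO by limma, against 6.67% of all probesets. Replicate 2 of MEFs + ALL + nilotinib lay at -50.0 on the second component, which held 18.9% of the variance. Values of the comparisons with MEFs + ALL + nilotinib are given below without that replicate too. Of 12 fibroblast markers, the collagen gene Col1a1, the fibronectin gene Fn1 and the vimentin gene Vim had mean signals at or above those of 99.8%, 99.9% and 99.9% of all probesets, and the lowest were Lum at 81.2% and Pdgfra at 62.8%. In MEFs + ALL + nilotinib over MEFs + DMSO 1 of the 12 rose, against 0.627% of all probesets called. It was the surface glycoprotein gene Thy1 (by 0.605, SE 0.10, adjusted p = 0.0416 by limma, n = 3 arrays per group). Lum had 0.71 (adjusted p = 0.0515 by limma) and Pdgfra 0.38. The part of these markers in the values of Clca3a1 and Clca3a2 was not tested.

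Clca3a1 and Clca3a2 both had lower signals in MEFs grown without ALL cells than in MEFs grown with them. Without ALL cells their group means were 7.15 to 7.43, above the array medians of 6.94 to 7.01. In MEFs + DMSO the log2 signal of Clca3a1 was 7.41, 7.30 and 6.87 on the 3 arrays. In MEFs + nilotinib it was 7.48, 7.48 and 7.21, within or just above the range of MEFs + DMSO. In MEFs + ALL + nilotinib it was 8.50, 7.88 and 8.56, and in MEFs + ALL + DMSO it was 8.06. All 4 arrays with ALL cells lay above all 6 arrays without them, and the lowest of the 4 was replicate 2 of MEFs + ALL + nilotinib. The share of all probesets split in this way was not counted, so nothing is read from the split in either gene.

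For Clca3a2 the log2 signal in MEFs + DMSO was 7.18, 7.17 and 7.10, a narrow range. In MEFs + nilotinib it was 7.62, 7.51 and 7.16, with replicates 1 and 2 above all of MEFs + DMSO and replicate 3 inside that range. It reached 8.45, 7.94 and 8.47 in MEFs + ALL + nilotinib and 8.08 in MEFs + ALL + DMSO. The arrays with ALL cells again lay above all those without, and replicate 2 of MEFs + ALL + nilotinib was again the lowest of them. The plot of the signals on each array shows the same layout for both genes.

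**Figure D1:**
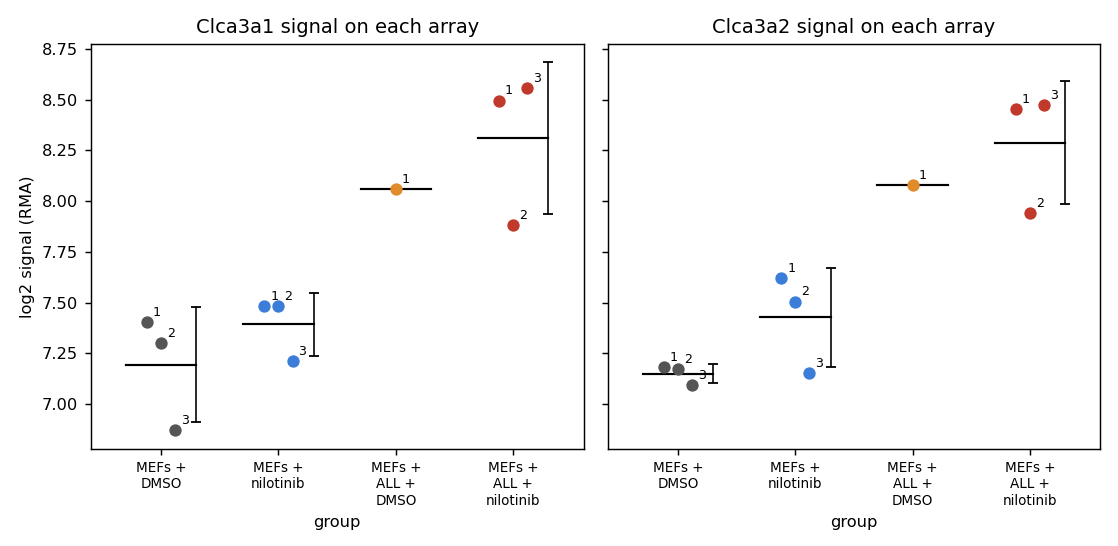
Log2 signal (RMA) of Clca3a1 (left) and Clca3a2 (right) on each of the 10 arrays, by group. Points are arrays with their replicate number, horizontal lines are group means and bars are ± 1 SD (n = 3; MEFs + ALL + DMSO is 1 array and has none). The 4 arrays with ALL cells lie at 7.88 or above and the 6 without at 7.62 or below.

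In order of level, both genes ran from MEFs + DMSO through MEFs + nilotinib and MEFs + ALL + DMSO to MEFs + ALL + nilotinib. The group means of Clca3a1 on the log2 scale were 7.19 ± 0.28 (SD, n = 3), 7.39 ± 0.15 (SD, n = 3), 8.06 (n = 1) and 8.31 ± 0.37 (SD, n = 3) in that order. Those of Clca3a2 were 7.15 ± 0.048 (SD, n = 3), 7.43 ± 0.24 (SD, n = 3), 8.08 (n = 1) and 8.29 ± 0.30 (SD, n = 3). Neighbours in this order overlapped in both genes at the lower end, MEFs + DMSO and MEFs + nilotinib, and at the upper end, where the MEFs + ALL + DMSO array lay within the range of MEFs + ALL + nilotinib. The step that no array crossed was the one between MEFs + nilotinib and MEFs + ALL + DMSO.

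In MEFs + ALL + nilotinib over MEFs + DMSO, Clca3a1 differed by 1.12 on the log2 scale (SE 0.20, n = 3 arrays per group) and by 2.19-fold in mean signal. Clca3a2 differed by 1.14 (SE 0.16, n = 3 arrays per group) and by 2.23-fold. Among the 21789 probesets with 1 gene symbol these were the fourth largest and the largest differences upward, ranks of 4 and 1. Probesets with no symbol or several were not ranked. The paper reports larger rises than these in MEFs with nilotinib-treated ALL cells, for probesets of a family of satellite DNA sequences. In 2 of 2 genes all arrays of MEFs + ALL + nilotinib lay above all arrays of MEFs + DMSO, by 0.47 for Clca3a1 and 0.76 for Clca3a2. The same held for 14.1% of all probesets. Since the genes were chosen by their values across all 4 groups, nothing is read from this count or from those of the other comparisons. Without replicate 2 of MEFs + ALL + nilotinib the differences were 1.33 for Clca3a1 and 1.31 for Clca3a2.

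With the drug in both groups, MEFs + ALL + nilotinib exceeded MEFs + nilotinib by 0.92 for Clca3a1 (SE 0.20, n = 3 arrays per group; 1.92-fold) and by 0.86 for Clca3a2 (SE 0.16, n = 3 arrays per group; 1.83-fold). The arrays did not overlap in 2 of 2 genes, as for 7.8% of all probesets, with gaps of 0.40 and 0.32. By size these were ranks 6 and 10 of 21789. This comparison shares its MEFs + ALL + nilotinib arrays with the one before it. Without replicate 2 of that group the differences were 1.13 and 1.04.

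Without the drug, the single array of MEFs + ALL + DMSO exceeded the mean of MEFs + DMSO by 0.86 for Clca3a1 (SE 0.29, n = 1 and 3 arrays; 1.80-fold) and by 0.93 for Clca3a2 (SE 0.23, n = 1 and 3 arrays; 1.90-fold). It lay above all 3 MEFs + DMSO arrays in 2 of 2 genes, as for 30.4% of all probesets. By size these were ranks 796 and 739 of 21789. The differences over MEFs + nilotinib, 0.92 and 0.86, were close to them in size but stood at ranks 6 and 10. A rank also depends on how far all other probesets differ, and more of them were higher here. The lower ranks therefore do not show a smaller difference in these 2 genes. Both this comparison and the first use the MEFs + DMSO arrays, and the SE of a single array is borrowed from the spread of the other groups.

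Nilotinib alone left smaller differences than either co-culture had over MEFs + DMSO, at ranks 1628 for Clca3a1 and 615 for Clca3a2 of 21789. MEFs + nilotinib over MEFs + DMSO was 0.20 for Clca3a1 (SE 0.20, n = 3 arrays per group) and 0.28 for Clca3a2 (SE 0.16, n = 3 arrays per group). Clca3a1 had 0.039 without replicate 3 of MEFs + DMSO and 0.31 without replicate 1 of that group, and Clca3a2 had 0.18 and 0.41 without replicates 1 and 3 of MEFs + nilotinib. The arrays overlapped in both genes, so that 0 of 2 were clear of MEFs + DMSO, against 13.6% of all probesets with all arrays higher. Between the 2 co-cultures, MEFs + ALL + nilotinib over MEFs + ALL + DMSO was 0.25 for Clca3a1 (SE 0.29, n = 3 and 1 arrays) and 0.21 for Clca3a2 (SE 0.23, n = 3 and 1 arrays), again with overlap in both genes, against 39.5% of all probesets with all arrays higher. The overlap between the co-cultures came from replicate 2 of MEFs + ALL + nilotinib, as replicates 1 and 3 lay above the MEFs + ALL + DMSO array in both genes. Without replicate 2 the difference was 0.47 for Clca3a1 and 0.38 for Clca3a2. It was 0.16 and 0.13 for Clca3a1, and 0.13 and 0.12 for Clca3a2, without replicates 1 and 3.

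Both genes also followed each other from dish to dish. Over the 10 arrays Pearson's r between them was 0.97 and Spearman's rho 0.99, across groups that themselves differed in both genes. Without the 2 arrays farthest from the median of Clca3a1, r was 0.93 over 8 arrays. Among the 6 arrays without ALL cells r was 0.73 and rho 0.94. When each array was taken as its deviation from its group mean, r was 0.84 and rho 0.65 over the 9 arrays of groups with replicates. Replicate 2 of MEFs + ALL + nilotinib was low in both, by -0.43 and -0.35 from the group mean, and replicate 3 of MEFs + nilotinib likewise, by -0.18 and -0.27. Replicate 3 of MEFs + DMSO was low in Clca3a1 by -0.32 but only by -0.06 in Clca3a2. These correlations are descriptions over arrays that share probes of related sequence and one normalization, and no p is given for them.

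The genes whose pattern over the 10 arrays was most like that of Clca3a1 and Clca3a2 were the same 4 for both, besides each other. They were sought among 1175 probesets with 1 symbol and an SD of at least 0.3. Folh1, which encodes a glutamate carboxypeptidase of the cell surface, had r of 0.975 with Clca3a1 and 0.979 with Clca3a2. Cp, the gene of the copper-carrying ferroxidase ceruloplasmin, had 0.975 and 0.974. Fgf10, a fibroblast growth factor that acts on epithelia, had 0.957 and 0.962, and Slitrk6, a transmembrane protein gene known from neurons and the inner ear, had 0.957 and 0.961. Clca3a1 and Clca3a2 ranked 3 for each other, at 0.972. Since arrays of a group share a condition, all of these are descriptions.

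All 4 had the same order of groups, which their choice by likeness over the same arrays made likely. Folh1 had group means of 7.22 ± 0.20, 7.46 ± 0.21, 8.16 and 8.33 ± 0.27 on the log2 scale (SD, n = 3, and n = 1 for MEFs + ALL + DMSO) in MEFs + DMSO, MEFs + nilotinib, MEFs + ALL + DMSO and MEFs + ALL + nilotinib. Cp stood at 7.82 ± 0.15, 8.10 ± 0.11, 8.47 and 8.66 ± 0.23 in the same groups. In Fgf10 the means were 7.54 ± 0.12, 7.64 ± 0.12, 8.17 and 8.31 ± 0.075. Slitrk6 had 6.29 ± 0.025, 6.31 ± 0.14, 6.94 and 7.09 ± 0.41. Its spread in MEFs + ALL + nilotinib came with a low replicate 2, at 6.63 against 7.38 and 7.27, as in both CLCA genes. Without the MEFs + ALL + DMSO array, 386 probesets passed the SD minimum and 3 of the 5 most alike were kept for each gene. Fgf10 and Slitrk6 then gave way to Ms4a4d and Cxcl15 for Clca3a1, and to Elobl and Cxcl15 for Clca3a2. With Spearman's rho 4 of 5 were kept for each.

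**Figure D2:**
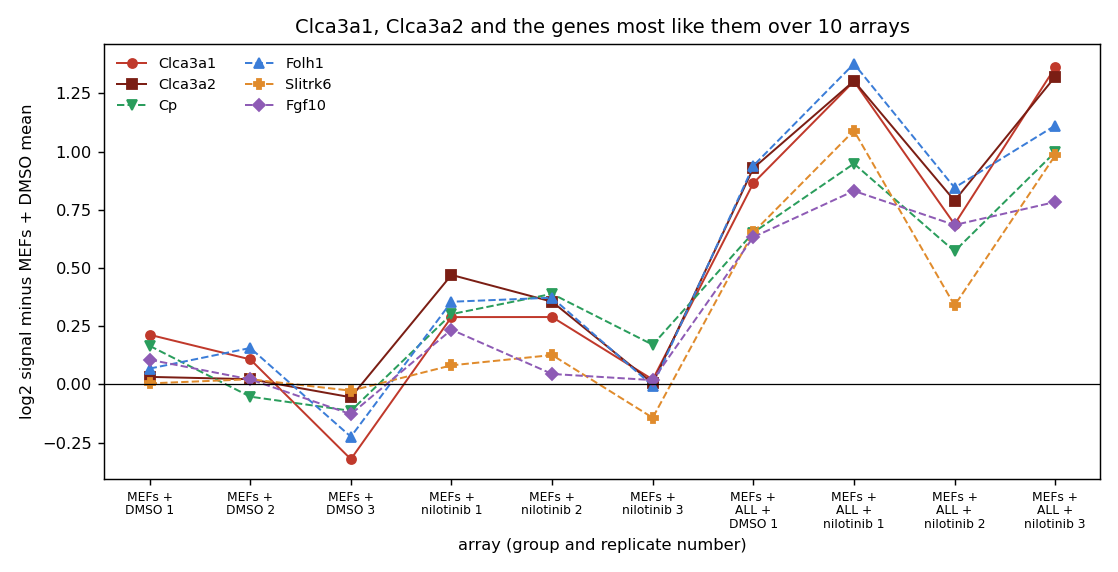
Log2 signal on each array minus the mean of the 3 MEFs + DMSO arrays, for Clca3a1, Clca3a2 and the 4 other genes most like them (Cp, Folh1, Slitrk6, Fgf10). The x axis gives group and replicate number, and lines only join the points of a gene. All 6 genes lie highest on the 4 arrays with ALL cells, and all but Cp and Fgf10 reach 1.09 or more above MEFs + DMSO on replicate 1 of MEFs + ALL + nilotinib. All were chosen by their values on these arrays, so the shared layout is no separate finding.

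None of the other measured genes of the CLCA cluster passed the test in any comparison. In the order of the chromosome the family runs Clca3a1, Clca3a2, Clca3b, Clca4c-ps, Clca4b, Clca4a, Clca1 and Clca2, and 7 of these 8 had a probeset of their own. For MEFs + ALL + nilotinib over MEFs + DMSO the log2 difference was -0.11 for Clca3b (SE 0.13), -0.07 for Clca4b (SE 0.13), -0.04 for Clca4a (SE 0.10), 0.04 for Clca1 (SE 0.13) and -0.05 for Clca2 (SE 0.12), all with n = 3 arrays per group. None of these 5 passed limma at an adjusted p of 0.05, where 0.627% of all probesets passed, and 0 of 5 had an unadjusted p under 0.05, as 16.2% of all probesets had. The smallest adjusted p among them was 0.722. Their median difference was -0.05, against -0.0042 over all probesets. Signals of these 5 were low, with MEFs + DMSO means of 4.80 (Clca4b), 4.83 (Clca2), 5.34 (Clca4a), 5.94 (Clca3b) and 6.12 (Clca1). Array medians were 6.94 to 7.01. At such levels an unchanged gene and one too weak to be read cannot be told apart. The lack of calls therefore does not show that the rise was confined to Clca3a1 and Clca3a2.

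Clca3b, the next gene of the cluster after Clca3a2, had group means of 5.94, 5.93, 5.73 and 5.84 on the log2 scale in MEFs + DMSO, MEFs + nilotinib, MEFs + ALL + DMSO and MEFs + ALL + nilotinib. Clca1, the mucus-associated member, had 6.12, 6.02, 5.93 and 6.16. In both genes the co-culture without drug was the lowest group. Over MEFs + nilotinib, MEFs + ALL + nilotinib differed by -0.10 for Clca3b and 0.14 for Clca1, and 0 of 5 family members passed, against 0.186% of all probesets. In MEFs + ALL + DMSO over MEFs + DMSO the 5 ranged from -0.23 to -0.03 with 0 calls, where 10.3% of all probesets were called. The same 5 had 0 calls between the co-cultures, where 4.34% of all probesets passed, and 0 for the interaction of ALL cells and drug, where 3.95% passed. Nilotinib alone gave 0 calls among them and among all probesets (0%). The probeset that names both Clca4b and Clca4a was not used to read either gene.

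Genes on either side of the cluster were measured as well, 10 on each side. For MEFs + ALL + nilotinib over MEFs + DMSO 0 of 20 passed limma at an adjusted p of 0.05, against 0.627% of all probesets. An unadjusted p under 0.05 was found for 4 of 20, against 16.2% of all probesets. The differences ran from -0.40 to 0.40, with a median of 0.01. Next to Clca3a1, Sh3glb1, which encodes the membrane-curving protein endophilin B1, had 0.03 (SE 0.07). Next to Clca2, Odf2l, a relative of a sperm tail and centriole gene, had 0.04 (SE 0.15). The largest in size were Znhit6, a gene for the assembly of small nucleolar RNA particles, with -0.40 (SE 0.13, adjusted p = 0.195 by limma, n = 3 arrays per group) and Gbp7, a guanylate-binding protein induced by interferon, with 0.40 (SE 0.13, adjusted p = 0.188 by limma, n = 3 arrays per group). The plot along the chromosome shows that in this comparison the 2 large differences stand side by side among small ones. This did not hold in MEFs + ALL + DMSO (1 array) over MEFs + DMSO. There the neighbours Gbp7, Gbp3 and Kyat3 had 2.02, 0.85 and 0.79, beside 0.86 for Clca3a1 and 0.93 for Clca3a2. The 20 neighbours ran from -0.60 to 2.02 there, with a median of -0.07.

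**Figure D3:**
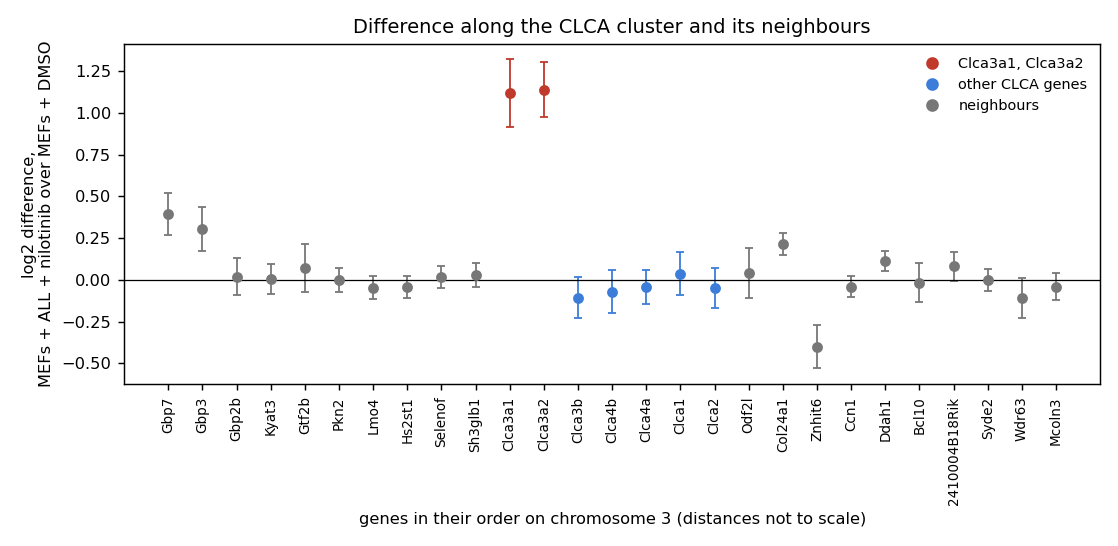
Log2 difference of MEFs + ALL + nilotinib over MEFs + DMSO for genes in their order on chromosome 3 (not to scale), with bars of ± 1 SE from limma (n = 3 arrays per group). Clca3a1 (1.12) and Clca3a2 (1.14) are red, the 5 other measured CLCA genes blue and the 20 neighbours grey, and the latter lie between -0.40 and 0.40.

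Chloride channels opened by calcium include Ano1, through which CLCA proteins can raise currents. Of 16 genes listed for such channels and their relatives (anoctamins, bestrophins and the Ttyh family), 15 were measured. In MEFs + ALL + nilotinib over MEFs + DMSO 0 of 15 passed limma, against 0.627% of all probesets. An unadjusted p under 0.05 was found for 1 of 15, against 16.2% of all probesets. The median difference of the 15 was 0.0019. Ano1, the channel best tied to CLCA proteins, had 0.07 (SE 0.07), from 8.49 in MEFs + DMSO to 8.56 in MEFs + ALL + nilotinib. Largest in size were Ano3, of the same family of channels and scramblases, with -0.29 (SE 0.13) and Ano4 with -0.18 (SE 0.08, adjusted p = 0.303 by limma, n = 3 arrays per group). In the MEFs + ALL + DMSO array 1 of 15 passed, Ano4, which fell by 0.50, against 3.59% of all probesets that were lower.

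Other chloride channels and chloride transporters numbered 24, of which 21 were measured. For MEFs + ALL + nilotinib over MEFs + DMSO 0 passed limma, against 0.627% of all probesets. An unadjusted p under 0.05 was found for 5 of 21, against 16.2% of all probesets, and the median was -0.01. Slc12a2, the sodium-potassium-chloride cotransporter, had the largest difference, -0.36 (SE 0.09, adjusted p = 0.118 by limma, n = 3 arrays per group). Clcn1, the chloride channel of skeletal muscle, followed with -0.22 (SE 0.08). Over MEFs + nilotinib 0 of 15 and 0 of 21 genes of the channel lists passed, with 3 and 2 at an unadjusted p under 0.05, where 9.27% of all probesets were. In MEFs + ALL + DMSO over MEFs + DMSO 1 of 21 was higher and 4 were lower, against 6.67% and 3.59% of all probesets.

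Binding partners described for CLCA proteins gave no call in the drug-treated co-culture either. All 6 on the list were measured, namely the integrin subunit genes Itgb4, Itga6, Itgal, Itgam and Itgb2, and Ano1. In MEFs + ALL + nilotinib over MEFs + DMSO 0 passed limma, against 0.627% of all probesets. An unadjusted p under 0.05 was found for 0 of 6, against 16.2% of all probesets. Itgb4 with -0.15 (SE 0.12) and Itgam with 0.12 (SE 0.12) were the largest in size. Itgal and Itgb2, the subunits of the leukocyte integrin LFA-1, rose in MEFs + ALL + DMSO over MEFs + DMSO by 1.50 (SE 0.12) and 0.73 (SE 0.19). Leukocyte transcripts were high on that array, and their part in these rises was not tested.

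Clca3a1 and Clca3a2 were high on arrays where leukocyte and B-lineage genes stayed near their level in MEFs alone. They were also high on the array where these genes rose. The 10 genes of the macrophage list had a mean log2 signal of 8.57 to 8.84 on the arrays of every group, above the array medians. Single genes of that list differed widely, from 11.9 for Lyz2 to 6.67 for Cd14 in MEFs + DMSO. Whether macrophages were present was not tested. The mean log2 signal of the 15 measured leukocyte and B-lineage genes was 7.54 to 7.62 in MEFs + DMSO, 7.52 to 7.66 in MEFs + nilotinib, 7.61 to 7.67 in MEFs + ALL + nilotinib and 9.53 in MEFs + ALL + DMSO. In MEFs + ALL + nilotinib, where both genes were highest, 1 of the 15 rose over MEFs + DMSO, Arhgdib (0.74, SE 0.10, adjusted p = 0.0266 by limma, n = 3 arrays per group), a gene known from blood cells, against 0.627% of all probesets called. The defining pre-B and B cell genes Vpreb1 and Cd79a had -0.12 and -0.12. In MEFs + ALL + DMSO they rose by 2.99 and 2.80, while Clca3a1 and Clca3a2 were within the range of the drug-treated co-culture. In such bulk RNA fewer cells of a type and less RNA per cell cannot be told apart. The plot against leukocyte transcripts sets these values side by side. The MEFs + ALL + DMSO array is the single one on which this list was high. The paper left out other samples of that group as contaminated by ALL cells. Whether ALL cells had also reached the array that was kept was not tested. The part of leukocyte transcripts in the values of Clca3a1 and Clca3a2 was not tested either.

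**Figure D4:**
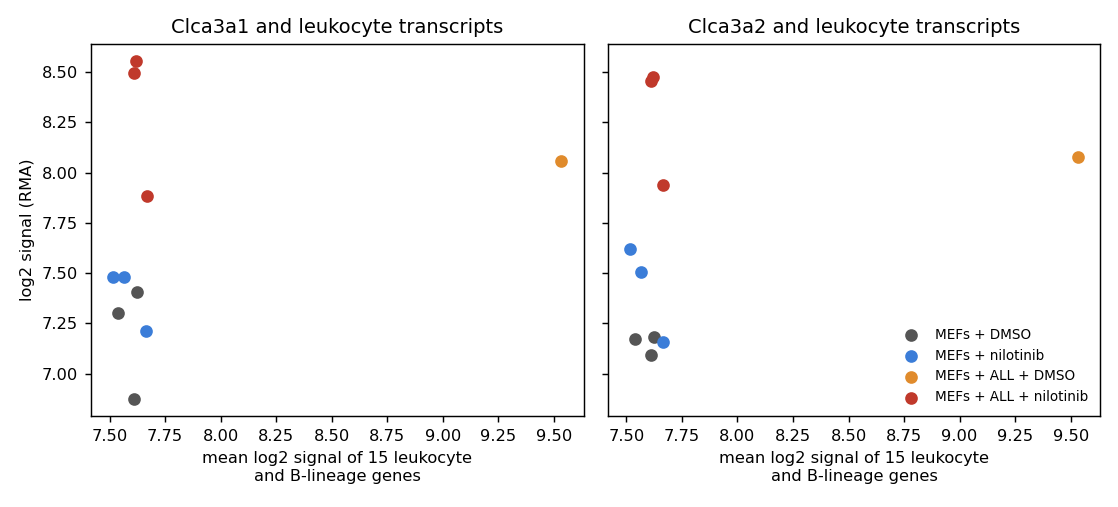
Log2 signal (RMA) of Clca3a1 (left) and Clca3a2 (right) on each array against the mean log2 signal of the 15 measured leukocyte and B-lineage genes. Colours give the group. The 3 MEFs + ALL + nilotinib arrays lie at 7.61 to 7.67 on the x axis, next to the arrays without ALL cells, and the MEFs + ALL + DMSO array lies alone at 9.53.

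Markers of the cell types in which these CLCA genes have been described were measured as well. In MEFs + ALL + nilotinib over MEFs + DMSO 0.627% of all probesets were called and 16.2% had an unadjusted p under 0.05. The mean log2 signal of 11 endothelial genes was 6.49 to 6.57 in MEFs + DMSO and 6.40 to 6.52 in MEFs + ALL + nilotinib, and 0 of 11 passed limma, with 2 at an unadjusted p under 0.05. Pecam1 and Cdh5, which define endothelium, had -0.12 and -0.09. In MEFs + ALL + DMSO (1 array) over MEFs + DMSO the differences were 1.41 for Pecam1, 1.44 for Erg and 0.69 for Egfl7. The other endothelial genes had negative differences there, with -0.29 for Cdh5. Of 7 measured genes of lymphatic endothelium, 1 passed, Pdpn (podoplanin, 0.41, SE 0.07, adjusted p = 0.0475 by limma, n = 3 arrays per group), while the defining genes Prox1 and Lyve1 had -0.11 and 0.03. Of 9 measured genes of the reticular stroma of lymphoid tissue, 1 passed, again Pdpn, and its mean was 7.24 to 7.31 in MEFs + DMSO and 7.37 to 7.40 in MEFs + ALL + nilotinib. In MEFs + ALL + DMSO over MEFs + DMSO 3 of 9 rose, Bst1 by 2.91, Pdpn by 0.39 and Tnfsf11. Of 11 epithelial and 10 macrophage genes 0 passed, with 4 and 0 at an unadjusted p under 0.05. In MEFs + ALL + nilotinib over MEFs + DMSO the calls of Pdpn, Arhgdib and Thy1 were lost with the replicate block (adjusted p of 0.142, 0.117 and 0.124 by limma) and held in 0, 1 and 1 of 6 fits with a replicate left out. The part of these lists in the values of Clca3a1 and Clca3a2 was not tested.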

How the data were processed

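RNA of irradiated MEFs was measured on 10 Mouse Gene 1.0 ST arrays (Affymetrix), whose number limits the precision. The values are the log2 probeset signals that the authors deposited, RMA-normalized and processed with Partek, its version and settings being not given in the sources used here. Probesets were named by the platform's annotation, and 1621 of 35557 that name several genes were not used to read, rank or compare genes. They were kept in the fit, the adjustment of p-values and the shares of all probesets.

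Group means were fitted to all probesets with limma 3.58.1 (lmFit and eBayes, R 4.3.3) on all 10 arrays with a shared spread. P-values were adjusted by Benjamini-Hochberg over 35557 probesets, with a threshold of 0.05, and the fit was tested on simulated data. Fold is the ratio of mean signals. A gene was read by its probeset with the highest mean. The promoter window of Clca3a1 and the gene order come from RefSeq tables of GRCm38.p6 and were handled in Python 3.11.15. The upstream sequence of Clca3a2 is not reported here.

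Clca3a1, Clca3a2 and all gene lists were chosen with earlier results of these data known. Besides them the text names the other measured CLCA genes, from other lists the genes past the test in MEFs + ALL + nilotinib over MEFs + DMSO or MEFs + nilotinib or else the 2 largest differences (marker lists by counts), the 5 genes most alike over the arrays by Pearson's r and up to 3 markers a list. Genes next to the cluster, Ano1, genes past the test in the MEFs + ALL + DMSO array and genes most alike under other settings were named outside this rule. Alternatives covered normalization, centring, a filter on low probesets, the variance model, array weights, the arrays fitted, the scale of the fold, leaving out arrays and a replicate block.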

Additional observations from a re-analysis of the deposited data

Results flagged for a closer look

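In 4 genes of the family, channel, partner and neighbour lists the difference between dishes with and without ALL cells was not the same under nilotinib as under DMSO, by the interaction in limma over 3 arrays of each group except MEFs + ALL + DMSO, which is 1 array. None of them is a CLCA gene. The measured genes of these lists numbered 5 in the family, 15 and 21 in the channel lists, 6 partners and 20 neighbours, with Ano1 both a channel and a partner. Beside the share of all probesets given below, nothing is read from the count of 4. For the endosomal chloride transporter gene Clcn3 the interaction was -0.82 (adjusted p = 0.0207), from -0.19 under nilotinib and 0.63 under DMSO. The leukocyte integrin gene Itgal had -1.62 (adjusted p = 0.000348), from -0.12 and 1.50. Among the chromosome neighbours, Gbp7 had -1.86 (adjusted p = 0.00157), from 0.16 and 2.02, and Kyat3, a kynurenine aminotransferase gene, had -0.89 (adjusted p = 0.0151), from -0.11 and 0.79. Of all probesets 3.95% passed this test, and of the marker lists 12 of 15 leukocyte and B-lineage, 3 of 11 endothelial, 2 of 9 reticular and 1 of 11 epithelial genes did. All 4 rest on the MEFs + ALL + DMSO array, which carried leukocyte transcripts (mean log2 signal of 9.53 against 7.52 to 7.67 elsewhere), and their part in these values was not tested.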

How the results depend on the processing

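The differences of Clca3a1 and Clca3a2 kept their sign in all 5 comparisons under every alternative run, from 0.96 to 1.33 and from 1.05 to 1.31 for MEFs + ALL + nilotinib over MEFs + DMSO. The filter on low probesets, the variance model, the replicate block and the choice of groups fitted could not change a difference of group means. Only the other alternatives could have moved the sign, and both genes were chosen on these same values. Counts of calls moved more. For that comparison, 223 calls over all probesets became 421 without the lowest 25% of probesets, 476 with trend and robust settings, 1263 with array weights, 12 with only the groups compared and 8 to 99 with a replicate left out. Over MEFs + nilotinib, 66 became 115, 117, 141, 4 and 12 to 36. For MEFs + nilotinib over MEFs + DMSO 0 became 0 to 57 with a replicate left out, the 57 without replicate 1 of MEFs + nilotinib. For MEFs + ALL + DMSO over MEFs + DMSO 3651 became 6615 with array weights and 2137 to 2491 with a replicate left out, and for MEFs + ALL + nilotinib over MEFs + ALL + DMSO 1543 became 535 with only the groups compared. Among the genes of the family, channel, partner and neighbour lists, which leave out the markers, these last comparisons had 11 and 5 calls, which became 17 with array weights, 5 with any MEFs + DMSO replicate left out, and 1 with only the groups compared. Array weights also called 1 gene of these lists, Slc12a2 (-0.29, adjusted p = 0.0447 by limma), in MEFs + ALL + nilotinib over MEFs + DMSO, where 0 were called. With a replicate left out, Clca1 ranged from -0.025 to 0.097 (-0.015 without replicate 3 of MEFs + ALL + nilotinib), Clca4a from -0.11 to 0.079 and Clca4b from -0.15 to 0.045. The causes were not tested.

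With the replicate block 223 and 66 calls became 8 and 12. Arrays of the same number did not deviate together (r from -0.29 to 0.24 over 9 pairs, 2 of them above 0.1), so the numbers were not taken to pair the dishes. The block changed no count of calls in those lists, which was 0 in each comparison it covers, ended the calls of Pdpn, Arhgdib and Thy1 and gives no value for MEFs + ALL + DMSO.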
